A study of Homo sapiens with 4 samples.

Results

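The nuclear lamins were examined in 2 human gastric cancer (GC) cell lines, AGS-1 and HGC-27, with and without isorhamnetin (ISO), a flavonol. The members were the genes named LMNA, LMNB1 and LMNB2 in the deposited table, 3 of its 2897 genes, and all 3 were above every filter on low values. Both lines were labelled wild type and of stomach origin, AGS-1 as gastric adenocarcinoma cells (its line is given as AGS) and HGC-27 as gastric carcinoma cells. One group of each line was untreated, and the other received 50 μM ISO for 24 h by the sample labels, while the text of the study gives a lower dose. RNA-seq gave 1 library per line and treatment, 4 in all, so a ratio between 2 libraries describes those libraries and has no replicate. The text of the study mentions duplicates, and no source used here states whether a deposited value is from a single one or from both together. Nothing states that the 2 libraries of a line came from separate cultures. In the fit across all 4 libraries, a p-value weighs a difference against how unlike the ISO changes of the 2 lines were. It also draws on the variance of other genes. It holds no spread between replicates, and the spread it does hold may be technical.

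Lamins are the intermediate filament proteins that line the inner face of the nuclear membrane. They carry nuclear shape and stiffness, tether chromatin and hold nuclear pores in place. LMNA encodes the A-type lamins, lamin A and lamin C, by alternative splicing, whereas LMNB1 and LMNB2 each encode a B-type lamin. B-type lamins keep a farnesyl group on the cysteine of their C-terminal CaaX box and stay bound to the membrane, whereas prelamin A is farnesylated and then cut, and lamin C has no CaaX box. B-type lamins are made in nearly all cells, the level of A-type lamins differs widely between tissues and tends to be high in stiff ones, and the balance of both is commonly described as the A:B ratio.

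The last 24 coding bases of 3 lamin transcripts, 1 from each gene, are shown because they hold the CaaX box that the lamin tails are processed at. They are from GENCODE 29 transcripts on GRCh38, written 5′ to 3′ on the coding strand, with the stop codon as the last 3 bases. Capitals mark the 4 codons of the CaaX box. The lamin A end lies at chr1:156139083-156139106 (+), the lamin B1 end at chr5:126836241-126836264 (+) and the lamin B2 end at chr19:2430911-2430934 (−), each in an exon.
lamin A: ccccagaacTGCAGCATCATGtaa
lamin B1: aatagaagcTGTGCAATTATGtaa
lamin B2: tcaagaggcTGCTACGTGATGtga
The 4 codons before the stop opened with a cysteine codon in all 3. Lamin A (664 codons) and lamin C (572 codons) shared their first 1699 coding bases, 566 whole codons. The table holds 1 value for LMNA, so it gives the sum of both A-type transcripts and not their proportion. Lamin B1 had 586 codons and lamin B2 had 620.

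The libraries held 15235004 (AGS-1 control), 15957590 (AGS-1 ISO), 20199425 (HGC-27 control) and 17072456 fragments (HGC-27 ISO), and the listed genes took 78.45% of them in AGS-1 control against 59.96 to 64.37% in the others. Values were FPKM, fragments scaled by gene length and library size. All genes here means the 2897 listed genes, which are not the whole transcriptome. Their median was 33.54, 26.68, 27.57 and 25.61 FPKM in the order above, so they are mostly well expressed. Medians and shares of all genes describe this listed set only. Over it the median log2 ratio of ISO to control was −0.29 for AGS-1 and −0.11 for HGC-27, so lamin values are also given relative to that median. Of the 10 listed epithelial markers 6 were in the table, with summed FPKM of 2193 and 1415 in the AGS-1 libraries and 4.59 and 3.75 in the HGC-27 libraries, and KRT19 was listed at 0 in both HGC-27 libraries. The 4 mesenchymal markers in the table, of 8 listed, summed to 10.4 and 7.69 FPKM in AGS-1 and 1082 and 796.4 FPKM in HGC-27, and TWIST1 was listed at 0 in both AGS-1 libraries. HGC-27 thus lacked most of the AGS-1 signal of the epithelial markers in the table. No haematopoietic (4 listed) or endothelial (3 listed) marker was among the genes of the table.

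By FPKM, which uses the gene lengths of the table, LMNA had the highest lamin value in both AGS-1 libraries and LMNB2 in both HGC-27 libraries, an order that turned in HGC-27 with coding transcript lengths. Under ISO, LMNA was 1.58-fold lower in AGS-1 and 1.18-fold lower in HGC-27. LMNB1 was 1.26-fold and 1.13-fold lower, the first of which turned to a higher value with upper-quartile scaling, and LMNB2 FPKM differed from control by −1.1% and 3.5%. None of the 3 lamins changed 2-fold with ISO, and none passed the test of a change shared by both lines. The A:B ratio was 1.87 for AGS-1 control and 0.565 for HGC-27 control, and it was lower with ISO in both lines. The plot of lamin FPKM by library shows these levels.

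**Figure D1:**
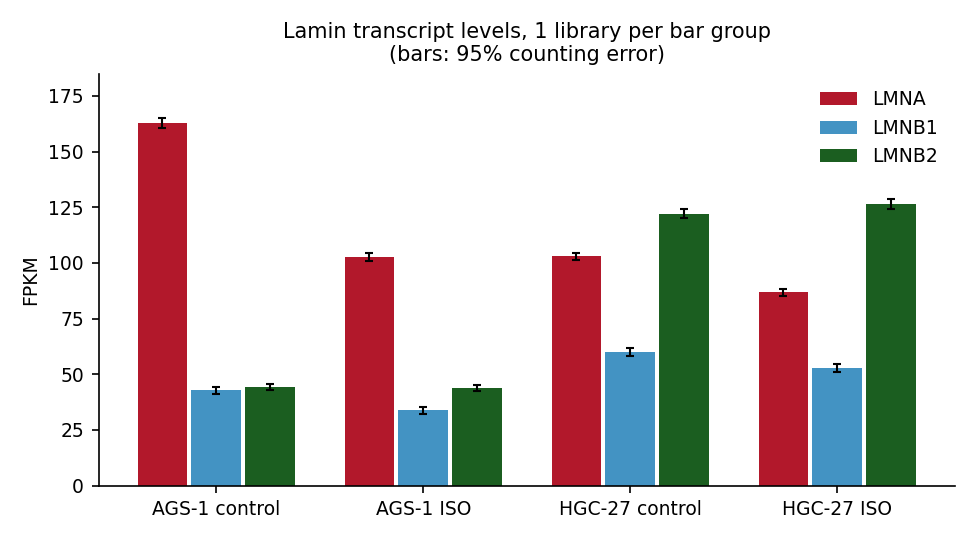
FPKM of LMNA, LMNB1 and LMNB2 (vertical axis) in the 4 libraries, 1 library per condition, with error bars of the 95% counting interval. LMNA is at 162.6 FPKM in AGS-1 control and between 86.9 and 103.0 in the other libraries, and LMNB2 is at 122.1 and 126.4 in the HGC-27 libraries against 44.4 and 43.9 in the AGS-1 libraries.

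LMNA (ENSG00000160789, chr1:156082573-156140081, plus strand), the gene of the A-type lamins, had 162.6 FPKM in AGS-1 control, 102.8 in AGS-1 ISO, 103.0 in HGC-27 control and 86.9 in HGC-27 ISO. These values rest on 20167, 13351, 16943 and 12074 fragments. AGS-1 control stood above the other libraries and HGC-27 ISO below them, while AGS-1 ISO and HGC-27 control did not differ beyond counting error (log2 ratio 0.004, 95% interval −0.029 to 0.036). LMNA was higher than 90.0 to 91.8% of listed genes in each library.

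The log2 ratio of ISO to control for LMNA, on FPKM + 1 as in all ratios of single genes here, was −0.66 in AGS-1 (95% counting interval −0.69 to −0.63) and −0.24 in HGC-27 (−0.28 to −0.21). Intervals cover counting error only, not variation between cultures. Relative to the median of all genes the ratios were −0.37 and −0.14, lower than those of 80.8% of genes in AGS-1 and 68.8% in HGC-27. LMNA stayed lower with ISO in both lines when the libraries were scaled by the median of ratios (−0.38 and −0.18) or by the upper quartile (−0.23 and −0.097). In bulk RNA, fewer cells of a type and less RNA per cell cannot be told apart.

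LMNB1 (ENSG00000113368, chr5:126776623-126837020, plus strand) encodes lamin B1, the B-type lamin whose loss is widely used as a sign of senescence. Its FPKM was 42.8 in AGS-1 control, 33.8 in AGS-1 ISO, 60.1 in HGC-27 control and 53.0 in HGC-27 ISO, from 2367, 1960, 4409 and 3288 fragments. Both HGC-27 libraries were above both AGS-1 libraries, and all neighbours in this order differed beyond counting error. The log2 ratio of ISO to control was −0.33 in AGS-1 (−0.41 to −0.25) and −0.18 in HGC-27 (−0.24 to −0.11), which is −0.044 and −0.072 relative to the median of all genes. With upper-quartile scaling the AGS-1 value turned to 0.089 and the HGC-27 value was −0.032, so the direction for LMNB1 in AGS-1 depended on the scaling.

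LMNB2 (ENSG00000176619, chr19:2427638-2456959, minus strand) encodes lamin B2. Its FPKM was 44.4 in AGS-1 control, 43.9 in AGS-1 ISO, 122.1 in HGC-27 control and 126.4 in HGC-27 ISO, from 3645, 3776, 13309 and 11642 fragments. The HGC-27 libraries were far above the AGS-1 libraries, which did not differ from each other beyond counting error. The log2 ratio of ISO to control was −0.016 in AGS-1 (−0.08 to 0.049) and 0.049 in HGC-27 (0.014 to 0.085), or 0.27 and 0.15 relative to the median of all genes, higher than 77.3% and 70.6% of genes. The sign in AGS-1 turned with scaling by the median of ratios (0.26) and by the upper quartile (0.41). TIMM13, a mitochondrial import chaperone gene on the same strand, overlaps LMNB2 by 257 bases in GENCODE 29, though not by the coordinates of the table, and had 45.3, 25.4, 58.5 and 32.4 FPKM in the order above.

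No lamin (0 of 3) reached a 2-fold change with ISO in either line, beside 7.46% of all genes in AGS-1 (216 genes, 24 higher and 192 lower) and 1.48% in HGC-27 (43 genes, 16 higher and 27 lower). With upper-quartile scaling the 2-fold genes split into 60 higher and 42 lower in AGS-1 and 26 higher and 15 lower in HGC-27. With scaling by the median of ratios the splits were 50 and 72, and 20 and 24. The median of all genes moved by 0.26 and 0.39 in AGS-1 and by 0.059 and 0.13 in HGC-27 under the median-of-ratios and upper-quartile scalings. The plot of all genes places the lamins within these distributions.

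**Figure D2:**
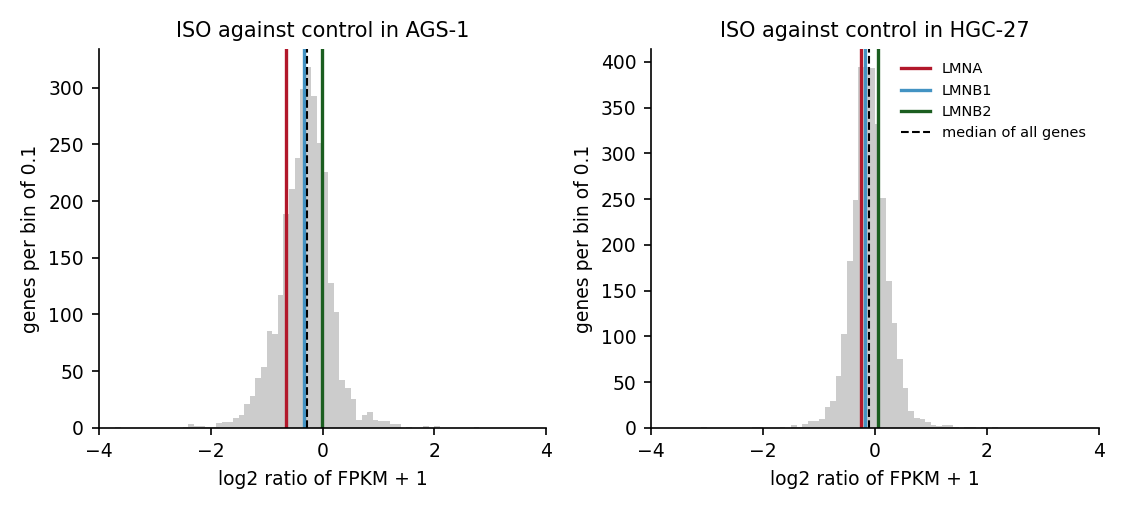
Number of genes (vertical axis, bins of 0.1) by log2 ratio of ISO to control on FPKM + 1 (horizontal axis) in AGS-1 and HGC-27, with the lamins as coloured lines and the median of all genes dashed. In both lines LMNA lies left of the median and LMNB2 right of it, while LMNB1 lies close to it, at −0.044 and −0.072 relative to it.

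limma, fitted to log2(FPKM + 1) with a term for the line and one for the treatment, gave the change shared by both lines, with 1 residual degree of freedom. That degree is the difference in ISO change between the lines. The variance drew on the other genes, for 12.4 degrees of freedom in all, so the p-values rest mostly on those genes. The shared log2 change with ISO was −0.45 for LMNA (SE 0.24, limma with Benjamini-Hochberg adjusted p = 0.304), lower in 2 of 2 lines. It was −0.25 for LMNB1 (SE 0.204, limma adjusted p = 0.482) and 0.017 for LMNB2 (SE 0.219, limma adjusted p = 0.97). None of the 3 lamins passed at 0.05, where 0.937% of all genes tested did (27 of 2883), and 578 genes had an unadjusted p under 0.05. Without a block for the line, or with either other scaling, no gene passed.

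For LMNB1 and LMNB2 the ratio between lines was larger than either ISO ratio. For LMNA it was of the size of the AGS-1 ISO ratio in control libraries only, and both of these use the AGS-1 control library. In ISO libraries the LMNA ratio between lines was smaller. In the control libraries the log2 ratio of AGS-1 to HGC-27 was 0.65 for LMNA (0.62 to 0.68), −0.48 for LMNB1 (−0.55 to −0.41) and −1.44 for LMNB2 (−1.49 to −1.39). LMNA was thus 1.57-fold higher in AGS-1, and LMNB1 and LMNB2 were 1.40-fold and 2.72-fold higher in HGC-27. In the ISO libraries the values were 0.24 (0.20 to 0.28), −0.63 (−0.71 to −0.55) and −1.51 (−1.56 to −1.45). LMNB2 was the only lamin past 2-fold, in control (1 of 3, beside 36.7% of all genes) and in ISO libraries (1 of 3, beside 30.3%).

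In the limma fit over all 4 libraries, LMNB2 was lower in AGS-1 by a log2 difference of −1.47 (SE 0.219, limma adjusted p = 8.6e-05) and LMNB1 by −0.56 (SE 0.204, limma adjusted p = 0.0335). The AGS-1 and HGC-27 libraries did not overlap for either gene, but the share of all genes without such overlap is not given here. LMNA, at 0.45 (SE 0.24, limma adjusted p = 0.133), did not pass, and its AGS-1 ISO library lay just under HGC-27 control. These 2 of 3 lamins stand beside 56.9% of genes that passed between the lines (1639 of 2883), so the share was near that of all genes. AGS-1 had the higher value for 928 of them and HGC-27 for 711, and upper-quartile scaling gave 789 and 1064.

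The A:B ratio, LMNA FPKM over the sum of LMNB1 and LMNB2 FPKM, was 1.87 in AGS-1 control (95% counting interval 1.81 to 1.92), 1.32 in AGS-1 ISO (1.28 to 1.37), 0.565 in HGC-27 control (0.554 to 0.578) and 0.484 in HGC-27 ISO (0.473 to 0.496). All 4 intervals were apart, with both AGS-1 libraries above both HGC-27 libraries. A ratio within a library does not depend on how the library is scaled. LMNA made up 65.1%, 57.0%, 36.1% and 32.6% of lamin FPKM in this order, LMNB1 17.1%, 18.7%, 21.1% and 19.9%, and LMNB2 17.8%, 24.3%, 42.8% and 47.5%. By the gene lengths of the table, LMNB1 thus held 17.1 to 21.1% in every library. The shares make up a whole, so a lower LMNA share then has to go with a higher LMNB2 share. LMNB2 FPKM itself was 44.4 and 43.9 in AGS-1 and 122.1 and 126.4 in HGC-27 (control and ISO).

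**Figure D3:**
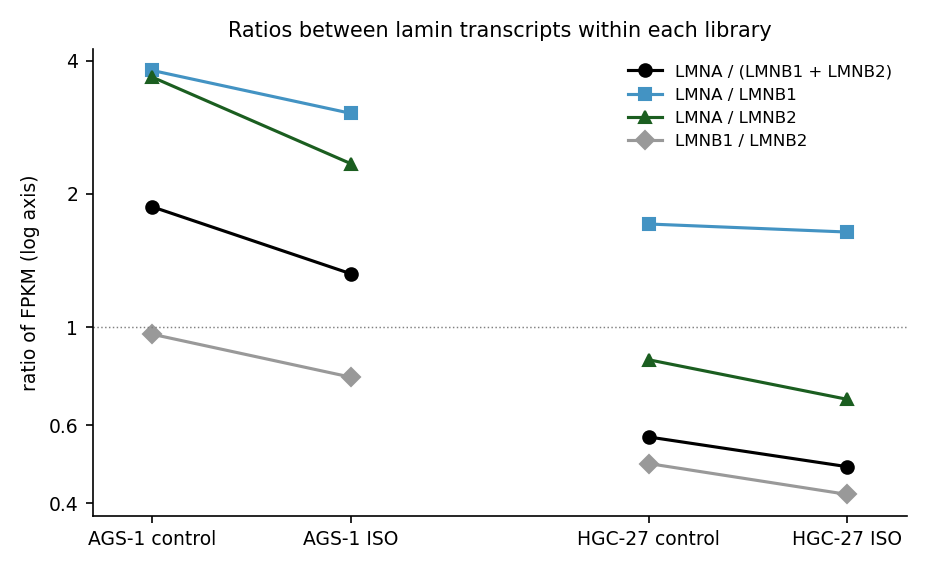
Ratios between lamin FPKM (vertical log axis) within each of the 4 libraries, drawn without intervals. The A:B ratio goes from 1.87 to 1.32 in AGS-1 and from 0.565 to 0.484 in HGC-27, and the LMNB1:LMNB2 ratio from 0.964 to 0.771 and from 0.492 to 0.419.

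With ISO the log2 A:B ratio was different from control by −0.50 in AGS-1 (−0.56 to −0.44) and −0.22 in HGC-27 (−0.27 to −0.18), lower in 2 of 2 lines. An exact two-sided permutation test with labels swapped within a line gave a mean change of −0.36 and p = 0.5, the smallest p that 2 pairs allow, so this test cannot reach 0.05. Against LMNB2 alone the log2 change of LMNA was −0.65 (−0.72 to −0.57) in AGS-1 and −0.30 (−0.35 to −0.25) in HGC-27. Against LMNB1 alone it was −0.32 (−0.42 to −0.23) and −0.066 (−0.14 to 0.008), and the last interval holds 0. The LMNB1:LMNB2 ratio was 0.964, 0.771, 0.492 and 0.419 in the order of libraries above, and its log2 change with ISO was −0.32 (−0.43 to −0.22) and −0.23 (−0.31 to −0.16). By value the order was LMNA, LMNB1, LMNB2 from the lowest to the highest ISO ratio in both lines, though in HGC-27 LMNA and LMNB1 did not differ beyond counting error.

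Between the lines the log2 A:B ratio was higher in AGS-1 by 1.72 (1.67 to 1.78) in control and by 1.45 (1.39 to 1.51) in ISO libraries, which is 3.3-fold and 2.73-fold. Summed lamin FPKM was 249.7 and 180.4 for AGS-1 and 285.2 and 266.3 for HGC-27 (control and ISO). This sum rests on the gene lengths of the table, which differ most from the coding transcripts for LMNA. Which line held more lamin transcript is therefore not settled by it. Summed B-type FPKM was 87.1 and 77.7 for AGS-1 and 182.2 and 179.4 for HGC-27.

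The level of the A:B ratio rests on the gene length used for FPKM. The table gives LMNA 8141 bases, 2.55 times the lamin A transcript (3190 bases) and 3.31 times the lamin C transcript (2461 bases), but LMNB1 1.26 times and LMNB2 1.15 times their coding transcript. With the lamin A length and those B-type transcripts, a choice made after seeing the data, the A:B ratio was 3.94, 2.81, 1.21 and 1.04, and with the lamin C length it was 5.11, 3.64, 1.57 and 1.35. The LMNA:LMNB2 ratio in HGC-27, 0.844 in control and 0.687 with ISO by the table, was 1.86 and 1.52 with the lamin A length. Whether A-type or B-type transcripts prevailed in HGC-27 therefore depended on the length, while the order of the 4 libraries was the same.

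The genes nearest in pattern to each lamin were found by distance over the 4 libraries (log2 of FPKM + 1, centred per gene) among the 2842 genes whose mean reached 10 FPKM. For LMNA they included CEBPG (distance 0.062) and RALY (0.074), an RNA-binding protein gene. CEBPG, a transcription factor gene, had 102, 67.7, 67.1 and 54.4 FPKM. For LMNB1 they were RRAGA (0.044), CDK2 (0.052), a cell cycle kinase gene, and CDT1 (0.053), which licenses replication origins. RRAGA, a GTPase gene of amino acid sensing, had 43.6, 35.6, 60.9 and 54.0 FPKM. For LMNB2 they were QTRT1 (0.064), PFKM (0.097) and GET3 (0.119), and QTRT1, a tRNA-modifying enzyme gene, had 12.3, 12.7, 34.5 and 36.0 FPKM. Distances between the lamins were 1.03 for LMNA and LMNB1, 1.98 for LMNA and LMNB2 and 0.956 for LMNB1 and LMNB2. The nearest genes were picked for the smallest distances, so those between the lamins had to be larger. Distances of other gene pairs are not given here, so neither set of values shows an unusual likeness or unlikeness.

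Genes that work with the lamins were taken from 8 lists, and no gene of any list passed the limma test of a shared ISO change (0 higher and 0 lower). Outside the cytoplasmic intermediate filaments, none of their genes reached a 2-fold ISO ratio in either line. Between the lines, the counts of list genes that passed limma stand beside the 56.9% of all genes that did. The median ISO ratios of the lists moved with the scaling, and upper-quartile scaling put 7 of the 8 medians in AGS-1 above 0, beside 0.1 for all genes. The plot of the lists shows each gene.

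**Figure D4:**
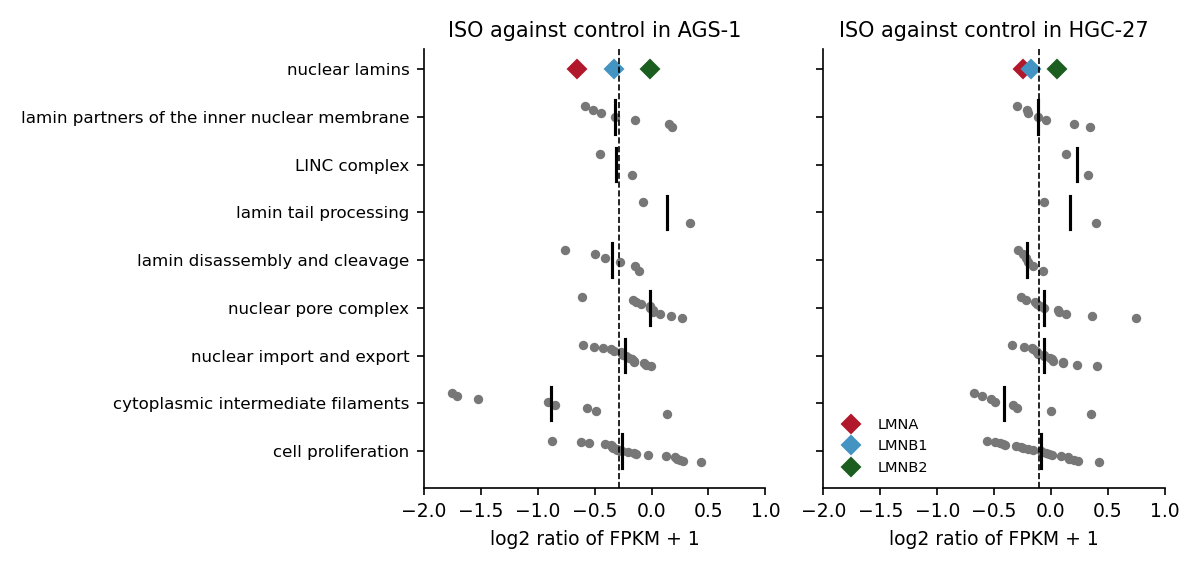
Log2 ratio of ISO to control on FPKM + 1 (horizontal axis) for the lamins (diamonds) and for each gene of 8 lists (grey points) in AGS-1 and HGC-27, with the list median as a bar and the median of all genes dashed. The cytoplasmic intermediate filaments have medians of −0.88 and −0.42, and the nuclear pore list −0.013 and −0.058.

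Partners of lamins in the inner nuclear membrane (7 of 15 listed genes in the table) had median log2 ISO ratios of −0.33 (AGS-1) and −0.11 (HGC-27), beside −0.29 and −0.11 for all genes. LBR, the lamin B receptor that also reduces sterols, had 58.2 and 38.4 FPKM in AGS-1 and 19.6 and 18.9 FPKM in HGC-27 (control and ISO). It was higher in AGS-1 by a log2 difference of 1.25 (limma adjusted p = 1.85e-04), the opposite of both B-type lamin genes. BANF1, which bridges DNA and the envelope, had 59.5, 41.4, 75.9 and 61.4 FPKM, and the line difference was −0.45 (limma adjusted p = 0.0892). Of the 7 genes, 1 was higher in AGS-1 and 1 in HGC-27 by this test, beside 56.9% of all genes in both directions.

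The LINC complex joins lamins to the cytoskeleton through SUN and nesprin proteins, and 2 of 6 listed genes were in the table. SUN1 had 19.6 and 17.3 FPKM in AGS-1 and 12.7 and 16.1 FPKM in HGC-27 (control and ISO), log2 ISO ratios of −0.17 and 0.33. SUN2 had 29.6, 21.4, 14.8 and 16.3 FPKM, ratios of −0.45 and 0.13. Both SUN genes had a lower ISO value in AGS-1 and a higher one in HGC-27, though SUN1 was higher with ISO in AGS-1 as well when scaled by the median of ratios (0.096) or the upper quartile (0.24). SUN2 was higher in AGS-1 by a log2 difference of 0.67 (limma adjusted p = 0.0135).

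Of the enzymes that process lamin tails, 2 of 6 were in the table. Both were higher in HGC-27 by limma, beside 56.9% of all genes that passed between the lines in either direction. ICMT, which methylates the farnesylated cysteine, had 21.5, 27.4, 32.1 and 42.4 FPKM, and the line difference was −0.58 (limma adjusted p = 0.0189). Its log2 ISO ratios were 0.34 and 0.39. ZMPSTE24, the protease that cuts prelamin A, had 18.6, 17.7, 27.4 and 26.1 FPKM, with a line difference of −0.54 (limma adjusted p = 0.0255) and ISO ratios of −0.074 and −0.064.

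The list of lamin disassembly and cleavage (6 of 13 genes in the table, all mitotic kinase, cyclin or phosphatase genes) had medians of −0.34 and −0.21, with 6 of 6 genes below 0 in each line, beside 2276 and 1860 of 2897 genes. With upper-quartile scaling 2 and 5 of the 6 were below 0, beside 1112 and 1320 genes. CCNB1, the mitotic cyclin whose kinase phosphorylates lamins, had 68.4, 63.4, 84.8 and 80.9 FPKM. PPP1CA, a catalytic subunit of the phosphatase that reverses this, had 43.5, 30.5, 33.8 and 30.2 FPKM.

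Of the nuclear pore genes, 11 of 32 were in the table, with medians of −0.013 and −0.058, and 2 were higher in AGS-1 and 3 in HGC-27 by limma, 5 of 11 beside 56.9% of all genes. NUP210, a membrane nucleoporin gene, had 0 and 1 fragments in the AGS-1 libraries and 9981 and 7740 fragments (60.3 and 55.3 FPKM) in the HGC-27 libraries. TPR, a filament protein of the nuclear basket, had 33.3 and 37.5 FPKM in AGS-1 and 12.8 and 13.4 FPKM in HGC-27, a log2 difference of 1.37 (limma adjusted p = 3.87e-05). Nuclear import and export genes (16 of 23) had medians of −0.24 and −0.058, with 4 of 16 past limma, 2 in each direction, beside the same 56.9%. RAN, the GTPase of nuclear transport, had 97.0, 67.9, 64.1 and 63.8 FPKM, and CSE1L, which returns importin alpha to the cytoplasm, had 83.4, 71.4, 65.5 and 55.2 FPKM.

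Cytoplasmic intermediate filament genes (8 of 29 in the table), relatives of the lamins, had the lowest medians of the 8 lists, −0.88 for AGS-1 and −0.42 for HGC-27. In AGS-1, 3 of the 8 were at least 2-fold lower, beside 7.46% of all genes in both directions, and 3 were with each other scaling. KRT17 had 42.4 and 11.9 FPKM in the AGS-1 control and ISO libraries, KRT80 70.3 and 23.7 FPKM, and KRT7 4.02 and 0.533 FPKM, all of them keratins. Their HGC-27 levels were between 0.791 and 2.95 FPKM. KRT19 and KRT18, keratins of simple epithelia, had 598.1 and 558.5 FPKM in AGS-1 control and 331.6 and 295.8 FPKM in AGS-1 ISO. By limma 5 of the 8 genes were higher in AGS-1 and 1 was in HGC-27, 6 of 8 beside 56.9% of all genes.

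Proliferation genes (21 of 24 in the table) had medians of −0.26 and −0.088, close to those of all genes, with 2 higher in AGS-1 and 9 in HGC-27 by limma, 11 of 21 beside 56.9% of all genes. MCM7, a subunit of the replicative helicase, had 45.9 and 37.0 FPKM in AGS-1 and 162.8 and 131.7 FPKM in HGC-27, a log2 difference of −1.80 (limma adjusted p = 1.48e-05). PCNA, the sliding clamp of DNA polymerase, had 179.7, 150.1, 100.4 and 118.7 FPKM. LMNB1, LMNB2 and MCM7 were thus higher in HGC-27 and PCNA had its higher values in AGS-1, and the part of proliferation or of the epithelial and mesenchymal markers in the lamin difference between the lines was not tested.

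Of the mesenchymal markers, COL1A1 had 9.71 and 6.83 FPKM in AGS-1 and 348.4 and 313.3 FPKM in HGC-27. TWIST1, a transcription factor gene of mesenchymal cells, had 333.8 FPKM in HGC-27 control and 155.0 FPKM in HGC-27 ISO, the 1 marker of either list past 2-fold with ISO (log2 ratio −1.10, and −0.95 with upper-quartile scaling). All 4 mesenchymal markers were higher in HGC-27 and all 6 epithelial markers higher in AGS-1 by limma, beside 56.9% of all genes that passed in either direction. The table holds mostly well expressed genes, so a marker may be listed only through the line where it was high. The split was thus partly set by the listing and does not test the identity of the lines.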

How the data were processed

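Total RNA of 4 cell line samples was measured by mRNA sequencing. The authors deposited 1 table of FPKM values for 2897 genes, with gene lengths and coordinates. The labels' processing notes list CASAVA 1.8, HISAT2 and the build GRCh38 (hg38), and the counting tool and annotation are not given in the sources used here. In each library, every product of FPKM and length was an integer number of equal steps (100% of values within 0.05), which gave the fragments behind each deposited FPKM value and the depth. The fragments served for 95% counting intervals only (normal approximation on the log scale).

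Log2 ratios used FPKM + 1, and a 2-fold ratio was called. The shared changes were fitted with limma 3.58.1 in R 4.3.3 (lmFit, eBayes with a trend) for the 2883 genes whose mean reached 1 FPKM, with Benjamini-Hochberg adjusted p-values compared with 0.05. The fit was also run on simulated counts in which 200 genes were changed by ISO alike in both lines. These counts were more regular than the data, so that run does not give an error rate for the results here. The remaining steps used matplotlib 3.10.9, scipy 1.17.1, pandas 2.3.3 and numpy 2.4.6 under Python 3.11.15. Alternatives were other pseudocounts, scalings, filters, models, left-out libraries and ways to form the A:B ratio.

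Genes named are the lamins, the 3 genes nearest to each in pattern, and of each list the 2 with the highest FPKM in any library and those changed at least 2-fold with ISO in either line. Some items that this rule covers are not reported here. TIMM13 was named after its values were seen, for its overlap with LMNB2. The members and lists were chosen with earlier results of these data known. Coordinates are those of the table, and exon structures and sequences are those of GENCODE 29 on GRCh38.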

Additional observations from a re-analysis of the deposited data

Results flagged for a closer look

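Some genes had ISO ratios of opposite sign in AGS-1 and HGC-27, with 1 library per condition, and the difference between the lines was not tested for any of them. The genes given here are not the only ones. Other genes of the lists also had opposite signs, some with larger ratios, and no count over all genes is given. For LMNB2 the log2 ratio was −0.016 in AGS-1 (95% counting interval −0.08 to 0.049) and 0.049 in HGC-27 (0.014 to 0.085). For PCNA it was −0.259 (−0.325 to −0.192) and 0.24 (0.166 to 0.314). For SUN1 it was −0.168 (−0.233 to −0.103) and 0.327 (0.26 to 0.394), and for SUN2 −0.451 (−0.528 to −0.375) and 0.131 (0.044 to 0.218). The interval of LMNB2 in AGS-1 holds 0, and the others do not. With median-of-ratios scaling the AGS-1 and HGC-27 values were 0.257 and 0.113 for LMNB2, 0.019 and 0.304 for PCNA, and 0.096 and 0.388 for SUN1, so their signs were no longer opposite. With upper-quartile scaling they were 0.405 and 0.196, 0.169 and 0.387, and 0.239 and 0.468, again of 1 sign. SUN2 kept opposite signs under both, at −0.183 and 0.192 and at −0.037 and 0.271.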

How the results depend on the processing

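Of 186 alternative values, 106 were labelled as staying with the reported one, 78 as moved and 2 as reversed. A value labelled as staying could still differ. With upper-quartile scaling the shared ISO change went from −0.45 to −0.163 for LMNA and from 0.017 to 0.3 for LMNB2, both under that label. In all, 5 log2 values changed sign, all of them ISO values of LMNB1 or LMNB2. The cause of these moves was not tested. When scaled by the median of ratios and by the upper quartile, log2 ISO ratios in AGS-1 were −0.38 and −0.229 for LMNA, −0.059 and 0.089 for LMNB1, and 0.257 and 0.405 for LMNB2. In HGC-27 they were −0.18 and −0.097 for LMNA and 0.113 and 0.196 for LMNB2, and −0.032 for LMNB1 with upper-quartile scaling. Between the lines in control libraries the same scalings gave 0.46 and 0.283 for LMNA, −0.67 and −0.844 for LMNB1, and −1.631 and −1.805 for LMNB2. In ISO libraries upper-quartile scaling gave 0.151, −0.724 and −1.597. A pseudocount of 5 gave −1.365 and −1.427 for LMNB2 in control and ISO libraries.

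Genes with a 2-fold ISO ratio in AGS-1 numbered 122 with median-of-ratios and 102 with upper-quartile scaling, and in HGC-27 73 and 27 with pseudocounts of 0.1 and 5. The shared ISO change of LMNB1 was 0.029 with upper-quartile scaling (limma adjusted p = 0.933), and that of LMNB2 went from −0.016 without the HGC-27 libraries to 0.049 without the AGS-1 libraries. Genes past the limma test of a shared ISO change numbered 107 and 12 with pseudocounts of 0.1 and 5, 6 without a filter, 104 where the mean had to reach 10 FPKM, and 6 without a trend. No gene (0) passed in limma with median-of-ratios or upper-quartile scaling or without a block for the line, where 511, 505 and 15 genes had an unadjusted p under 0.05.

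The change of the A:B ratio with ISO was −0.323 with LMNB1 alone and −0.646 with LMNB2 alone in AGS-1, and −0.066 and −0.296 in HGC-27. Between the lines it was 1.149, 2.12, 1.634 and 1.811 in control libraries and 0.891, 1.769, 1.33 and 1.525 in ISO libraries, with LMNB1 alone, LMNB2 alone, their geometric mean and fragments not divided by length. The labels carry no replicate numbers, and the cell line paired control with ISO in the reported fit. The libraries of 15235004 to 20199425 fragments put 1960 or more fragments behind each lamin value. Variation between cultures is not in any interval given.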
